A study of Mus musculus with 105 samples.

Results

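The urea cycle genes comprise the enzymes that turn ammonia into urea in the liver. They were taken as the rows of the deposited expression table whose gene symbol was Nags, Cps1, Otc, Ass1, Asl or Arg1, and all 6 were found among 12966 genes. The table covered bulk RNA from 105 mouse liver libraries, read from transcript 3′ ends by MAPS, a polyA-linked counting method, on an Illumina HiSeq2000. Every mouse had received DEN (diethylnitrosamine), a carcinogen that gives liver tumours, so no untreated liver entered any comparison. Sequencing group 1 held 60 libraries of IKO liver (labelled Ikk KO, with no subunit given), SKO liver (Shp2 KO) and WT liver, with 4 libraries in each group. Sequencing group 2 held 45 libraries of BKO liver (beta catenin KO), MKO liver (cMet KO) and a second set of WT liver, with 3 libraries in each group. The stages were 1, 3 and 5 months, and tumour and non-tumour liver were taken separately at 8 months, for 30 groups in all. The series title places the gene loss in hepatocytes. The promoter that drives the Cre, the strain and the sex were not given in the sources used here. The titles call replicates biological without naming animals, so p-values measure the spread between these libraries.

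In the mitochondrion, Nags makes N-acetylglutamate, the obligate activator of Cps1, and Cps1 joins ammonia and bicarbonate into carbamoyl phosphate. Otc, also mitochondrial, passes the carbamoyl group to ornithine to form citrulline. In the cytosol, Ass1 condenses citrulline with aspartate, Asl splits the product into arginine and fumarate, and Arg1 cleaves arginine into urea and ornithine. The pathway is strongest in hepatocytes around the portal vein, whereas hepatocytes next to the central vein make glutamine from the remaining ammonia.

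Library depth ran between 4676444 and 20231121 reads, with a median of 8353515. Depth here is the sum, over the 12966 listed genes, of reads recovered from the deposited values. At 8 months in sequencing group 2, tumours were deeper than non-tumour liver of their genotype. BKO tumours held 16895650 to 20198617 reads, against 11688496 to 13407336, and MKO tumours 15964220 to 20231121, against 11587217 to 13938314. WT tumours held 13846160 to 19749264, against 10521461 to 11087825. In sequencing group 1 SKO tumours were shallower, with 4906429 to 5642179, against 6918379 to 10863046, while IKO and WT overlapped. The part of depth in tumour values was not tested. Levels below are normalised reads, recovered from the deposited log2 values read as variance-stabilised, and every difference is on that deposited log2 scale. Levels were compared within a sequencing group, and no gene's level was ranked against another gene's. A gene was called where the limma test, with Benjamini-Hochberg adjustment over all 12966 genes, gave an adjusted p below 0.05. Over the 4 non-tumour stages, Ptpn11, which encodes Shp2, was lower in SKO than in WT liver by −1.12 (adjusted p = 6.18e-16), Met was lower in MKO by −0.31 (adjusted p = 0.0118) and Ikbkb was lower in IKO by −0.32 (adjusted p = 0.00258). Ctnnb1 differed by −0.01 (adjusted p = 0.931) in BKO. A 3′ tag may lie outside the deleted exons, so the values of Ctnnb1, Met and Ikbkb do not show the size of the loss. The library labelled SKO replicate 2 at 3 months held 375.1 reads of Ptpn11, among the WT values of that stage, between 350.1 and 387.7. Of 8 hepatocyte markers 7 were measured, and Alb, Ttr and Hnf4a were read in every group. In bulk liver, fewer cells of a type and less RNA per cell cannot be told apart.

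The genes lie on 6 chromosomes of GRCm38 in the GENCODE M21 annotation. Nags spans 11:102145513-102149477 on the plus strand, Cps1 1:67123026-67231259 on the plus strand and Otc X:10252305-10321024 on the plus strand. Ass1 spans 2:31470207-31520672 on the plus strand, Asl 5:130011258-130029247 on the minus strand and Arg1 10:24915221-24927484 on the minus strand. Since several of these genes moved together in tumours, the stretches before the annotated starts are shown for the 3 members found in the RefSeq promoter table of GRCm38.p6, and those of Cps1, Asl and Arg1 were not used. Otc is shown at chrX:10252055-10252304 (250 bases, 43.6% GC), Ass1 at chr2:31470020-31470206 (187 bases, 75.4% GC) and Nags at chr11:102145263-102145512 (250 bases, 55.6% GC), all on the plus strand, while the median GC of all promoters in the table was 52.4%. Capitals mark the GC box GGGCGG or its reverse complement.
Otc: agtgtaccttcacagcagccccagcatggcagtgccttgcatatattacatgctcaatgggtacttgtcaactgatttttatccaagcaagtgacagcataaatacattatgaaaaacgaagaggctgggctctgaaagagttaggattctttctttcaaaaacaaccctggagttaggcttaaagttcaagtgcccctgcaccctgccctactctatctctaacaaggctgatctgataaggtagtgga
Ass1: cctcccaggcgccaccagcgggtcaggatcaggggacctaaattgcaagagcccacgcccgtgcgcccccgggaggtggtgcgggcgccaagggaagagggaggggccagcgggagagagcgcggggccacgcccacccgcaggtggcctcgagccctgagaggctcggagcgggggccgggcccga
Nags: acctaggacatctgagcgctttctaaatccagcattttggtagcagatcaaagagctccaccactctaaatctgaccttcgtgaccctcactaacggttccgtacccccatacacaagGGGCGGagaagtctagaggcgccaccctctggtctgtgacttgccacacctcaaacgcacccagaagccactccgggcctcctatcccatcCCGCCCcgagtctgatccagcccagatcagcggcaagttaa

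The Nags stretch held the GC box 132 bases before the start and its reverse complement 41 bases before the start. Of 32851 promoters, 32.7% held the GC box in a stretch of the same length. The other 4 motifs were searched on both strands and were in none of the 3 stretches: TTNNGCAA (a C/EBP-type site), CAAAGTCCA (an HNF4-type site), TATAAA (a core promoter element) and TGACGTCA (a cAMP response element). They stood in 9.56%, 0.384%, 12.4% and 1.55% of all promoters over 250 bases. Over 187 bases, the length of the Ass1 stretch, the shares were 7.69%, 0.277%, 8.62% and 0.661%, and 22.2% for the GC box. A match is a description of the letters and not of binding.

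No urea cycle gene passed the test between WT liver at 8 months and at 1 month. In WT liver of sequencing group 1, Cps1 averaged 1549.7 ± 389.8 reads at 1 month, 1933 ± 122 at 3 months, 1629.9 ± 339 at 5 months and 2156 ± 127 at 8 months (SD, n = 4). Otc averaged 4059 ± 942, 4351 ± 661, 5816 ± 1038 and 5871 ± 498 reads at those stages. Ass1 peaked at 5 months, with means of 4002 ± 845, 5802 ± 2197, 6843 ± 1929 and 3229 ± 524 reads. Asl also had its highest WT mean at 5 months, with 1309 ± 213, 1889 ± 329, 2605 ± 462 and 1291 ± 274 reads. Arg1 averaged 1716 ± 377, 1613 ± 106, 1992 ± 131 and 1723 ± 175 reads, and Nags 450.1 ± 86.3, 473 ± 101, 519.6 ± 16.9 and 515 ± 71.0 reads. Between WT liver at 8 and at 1 month, 0 of 12 gene values were called by limma, 2 had an unadjusted p below 0.05, and limma-voom also called 0. Across all genes 7% were called in sequencing group 1 and 1.72% in sequencing group 2. The 2 were Cps1, 0.51 higher at 8 months (SE 0.23, adjusted p = 0.181), and Otc, 0.55 higher (SE 0.23, adjusted p = 0.136), both in sequencing group 1. Their libraries at 8 months lay above all at 1 month, as 7.1% of genes did.

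In WT liver of sequencing group 2, Cps1 averaged 3542 ± 508, 3930.5 ± 870.0, 3733 ± 366 and 3249 ± 99.7 reads at 1, 3, 5 and 8 months (SD, n = 3). Otc averaged 4552 ± 570.2, 4875 ± 239, 5026 ± 586 and 4246 ± 279.9 reads. Ass1 averaged 9551 ± 1491, 9597 ± 1174, 12555 ± 2133 and 9396 ± 2296 reads, again highest at 5 months. Asl averaged 2222 ± 304, 2828 ± 214, 3811 ± 501 and 2884 ± 651 reads, Arg1 1437 ± 348, 1415 ± 322, 1672 ± 246 and 1379 ± 102 reads, and Nags 798 ± 69.9, 795 ± 43.5, 833 ± 112 and 782 ± 94.4 reads. The 5-month peak of Ass1, Asl, Arg1 and Nags in both sets of WT liver is a description. The comparison of stages was run between 8 months and 1 month only.

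In the order of the 15 group means of sequencing group 1, tumours held the 3 lowest places for Cps1 and Ass1. For Otc the lowest were WT tumours (1785 ± 570.5) and SKO tumours (1914 ± 720.4), and SKO liver at 1 month (2728 ± 526) stood below IKO tumours (3192 ± 1035). For Asl the lowest were SKO tumours (475 ± 118) and WT tumours (504 ± 78.8), with SKO non-tumour liver at 8 months (735 ± 136) below IKO tumours (806 ± 343). The groups named for Otc overlapped their neighbours in the order, and so did those named for Asl, except that every WT tumour library lay just below those of SKO non-tumour liver at 8 months. Every Cps1 tumour library lay below the next group, IKO non-tumour liver at 8 months. Arg1 was highest in WT liver at 5 months and lowest in SKO liver at 1 month (1076 ± 107), with tumours spread through the order. Nags was highest in IKO liver at 5 months (661 ± 60.7) and lowest in WT tumours (351 ± 121). In sequencing group 2, tumours held the 3 lowest places for Cps1, Otc, Ass1, Asl and Arg1. The 3 tumour means of Cps1, between 1246 and 1264 reads, lay closer together than the libraries within each tumour group. For Nags, BKO non-tumour liver at 8 months (659 ± 97.7) stood below WT tumours (663 ± 201).

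**Figure D1:**
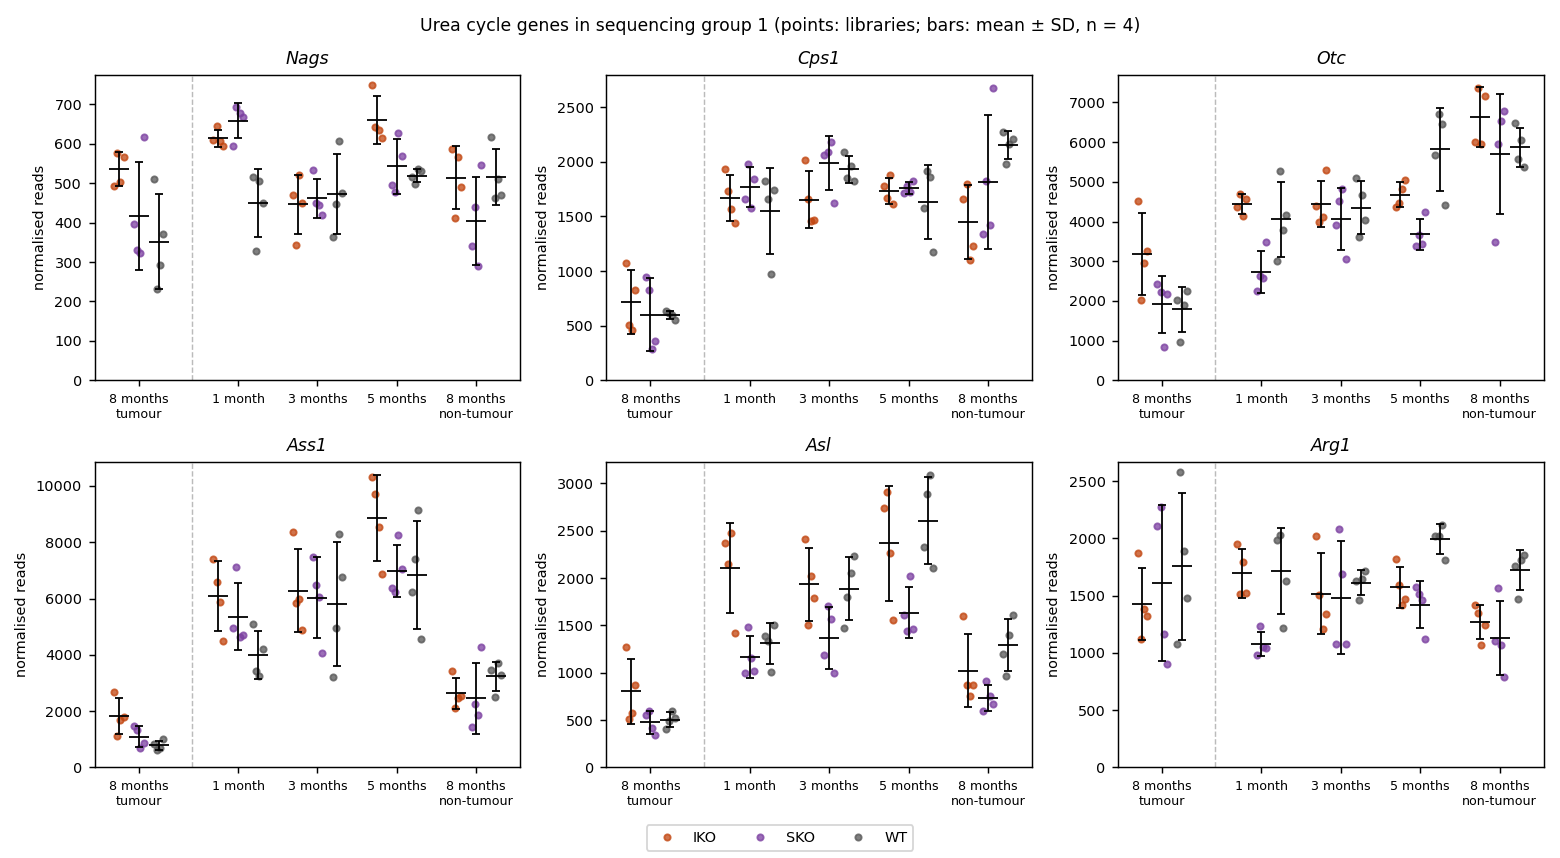
Normalised reads of the 6 urea cycle genes in sequencing group 1, with 1 point per library and bars for the mean and SD of 4 libraries. The x axis puts tumours left of the non-tumour stages, and Cps1 in all 12 tumours lies between 282 and 1073 reads.

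**Figure D2:**
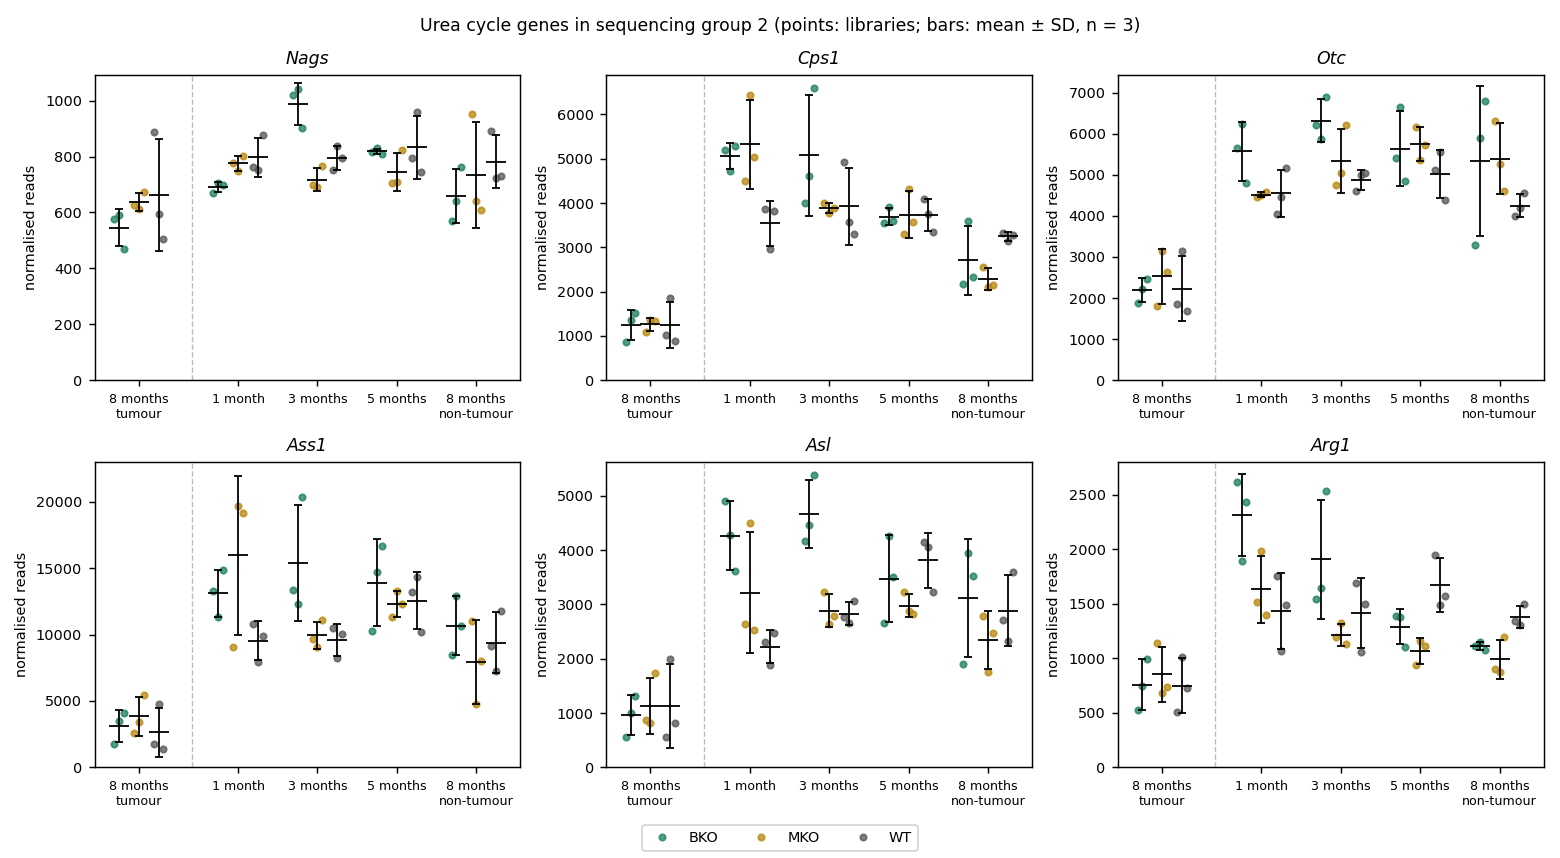
Normalised reads of the same genes in sequencing group 2, with 1 point per library and bars for the mean and SD of 3 libraries. Cps1 lies between 861 and 1845 reads in the 9 tumours and between 2109.7 and 6606 reads in the 36 non-tumour libraries.

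The comparison of tumour with non-tumour liver of the same genotype at 8 months asks how far tumours keep the pathway. Whether tumour and non-tumour libraries came from the same mice is not given in the sources used here, and the fit was unpaired. Of 36 gene values over the 6 genotype sets, 24 were called lower in tumours and 0 higher, with 26 at an unadjusted p below 0.05, and limma-voom also called 24. Over all genes the share called lower in tumours was 15.1% in IKO, 18.7% in SKO and 19.2% in WT of sequencing group 1, and 6.32% in BKO, 7.56% in MKO and 12% in WT of sequencing group 2. Cps1 and Otc were lower in all 6 sets, Ass1 and Asl in 5, and Arg1 and Nags in 1 each. The median difference of the 6 genes was −0.46 in IKO, −0.86 in SKO, −1.53 and −1.20 in the WT sets of sequencing groups 1 and 2, −1.16 in BKO and −0.93 in MKO, while the median of all genes lay between 0.01 and 0.04. In 22 of the 36 values every tumour library lay below every non-tumour library. That held for 13.6% of all genes in IKO, 16.1% in SKO and 16.7% in WT of sequencing group 1, and for 11.7% in BKO, 11.3% in MKO and 16.4% in WT of sequencing group 2.

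Cps1, the entry enzyme of the cycle, fell in every set. It had 1073, 508, 456 and 829.8 reads in IKO tumours, against 1661, 1801, 1099.6 and 1231 reads in IKO non-tumour liver. SKO tumours had 943, 824, 282 and 359 reads, against 1339, 1827, 1423 and 2679 reads in SKO non-tumour liver. WT tumours of sequencing group 1 had 637, 612, 595 and 554 reads, against 2271, 1978, 2165 and 2211 reads in WT non-tumour liver. These WT tumours were the tightest group, and in none of the 3 genotypes did a tumour library reach its non-tumour libraries. The log2 difference was −1.04 (SE 0.23, adjusted p = 0.000342) in IKO, −1.66 (SE 0.23, adjusted p = 5.23e-08) in SKO and −1.80 (SE 0.23, adjusted p = 6.84e-09) in WT. In sequencing group 2, BKO tumours had 861, 1353 and 1524 reads, against 2182, 3594 and 2332 reads in BKO non-tumour liver. MKO tumours had 1098, 1354 and 1339 reads, against 2562, 2109.7 and 2154 reads in MKO non-tumour liver, and WT tumours had 1010.5, 1845 and 883 reads, against 3329.5, 3138 and 3280.5 reads in WT non-tumour liver. Again no tumour group overlapped its non-tumour group. The differences were −1.10 (adjusted p = 0.000678) in BKO, −0.84 (adjusted p = 0.00677) in MKO and −1.44 (adjusted p = 5.96e-06) in WT.

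Otc, which makes citrulline, was also lower in tumours of every genotype. It had 4528, 2022, 2957 and 3259.6 reads in IKO tumours, against 6001, 7372, 5947 and 7173 reads in IKO non-tumour liver. In SKO it had 2431, 2214, 847 and 2162 reads in tumours, against 3481, 5955, 6538 and 6798 reads in non-tumour liver. WT tumours of sequencing group 1 had 2029, 957, 1903 and 2251 reads, against 6484, 5564, 6052 and 5381 reads in WT non-tumour liver. The groups did not overlap, and the highest tumour library was an IKO library. The differences were −1.10 (adjusted p = 0.000166) in IKO, −1.62 (adjusted p = 9.04e-08) in SKO and −1.77 (adjusted p = 9.79e-09) in WT. BKO tumours had 1883, 2216 and 2475 reads, against 3290.0, 5892 and 6809.6 reads in BKO non-tumour liver, a difference of −1.21 (adjusted p = 0.000183). MKO tumours had 1810.1, 3141 and 2638 reads, against 6308, 5268 and 4599 reads in MKO non-tumour liver, a difference of −1.11 (adjusted p = 0.000433). In WT of sequencing group 2, tumours had 1867, 3139.5 and 1690.1 reads, against 3997, 4192 and 4549 reads in non-tumour liver, a difference of −0.97 (adjusted p = 0.000596). Otc in the highest tumour library of each of these sets stayed below the lowest non-tumour library.

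Ass1, which uses citrulline and aspartate, was called lower in tumours of 5 sets. WT tumours of sequencing group 1 had 845, 617, 671 and 995 reads, against 3447, 2488, 3702 and 3281 reads in WT non-tumour liver, a difference of −2.02 (SE 0.26, adjusted p = 1.29e-08). WT tumours of sequencing group 2 had 1775, 4777 and 1381 reads, against 9171, 7220.5 and 11795 reads in WT non-tumour liver, a difference of −2.004 (SE 0.35, adjusted p = 4.39e-05). Neither pair overlapped, although WT tumour replicate 2 of sequencing group 2 stood well above the other two. BKO tumours had 1789.5, 3509 and 4098 reads, against 8459, 12904 and 10616 reads in BKO non-tumour liver, a difference of −1.82 (adjusted p = 0.000518). SKO tumours had 1457, 1340.3, 684 and 869.5 reads, against 1439.8, 2235, 1847 and 4286 reads in SKO non-tumour liver, a difference of −1.09 (adjusted p = 0.000716), and the highest tumour library overlapped the lowest non-tumour library. MKO tumours had 2620.4, 3445 and 5483 reads, against 11054, 4764 and 8033 reads in MKO non-tumour liver, which overlap. Ass1 differed there by −1.03 (SE 0.35, adjusted p = 0.0375), and the call was lost without MKO non-tumour replicate 1 (adjusted p = 0.213) or 3 (0.111) or MKO tumour replicate 1 (0.216) or 2 (0.103), and under quantile normalization (0.0875). In IKO the tumours had 2681, 1128, 1691 and 1807 reads, against 3413, 2096, 2456 and 2549.8 reads in IKO non-tumour liver. IKO tumour replicate 1 lay among the non-tumour values, and the difference of −0.56 (SE 0.26, adjusted p = 0.0967) did not pass. Without that library it was −0.76 (adjusted p = 0.0292).

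Asl, the enzyme that releases arginine, had 406, 489.5, 596 and 524 reads in WT tumours of sequencing group 1, against 1194, 966, 1401 and 1605 reads in WT non-tumour liver, a difference of −1.30 (adjusted p = 5.23e-06). In SKO it had 555, 591, 415 and 339 reads in tumours, against 597, 914, 757 and 674 reads in non-tumour liver, where its level was already low. These groups lay next to each other without overlap, and the difference was −0.62 (SE 0.23, adjusted p = 0.0251). The SKO call was lost without SKO non-tumour replicate 2 (adjusted p = 0.0974) or 3 (0.0545) or SKO tumour replicate 3 (0.065) or 4 (0.121). IKO tumours had 1267, 515, 575 and 866 reads, against 1599, 866, 753 and 870.1 reads in IKO non-tumour liver, which overlap, with a difference of −0.36 (adjusted p = 0.231). Without IKO tumour replicate 1 the difference was −0.60 (adjusted p = 0.0399). BKO tumours had 566, 1008 and 1307 reads, against 1895, 3940.2 and 3529 reads in BKO non-tumour liver, a difference of −1.68 (SE 0.32, adjusted p = 0.000504). WT tumours of sequencing group 2 had 565, 2003 and 815 reads, against 2716, 2334 and 3602 reads in WT non-tumour liver, a difference of −1.51 (SE 0.32, adjusted p = 0.000509). In both sets tumours lay below non-tumour liver. MKO tumours had 864, 814 and 1731 reads, against 2794, 1751 and 2480.2 reads in MKO non-tumour liver, a difference of −1.08 (SE 0.32, adjusted p = 0.0168). In MKO the highest tumour and lowest non-tumour library nearly met. The MKO call was lost without MKO non-tumour replicate 1 (adjusted p = 0.085) or 3 (0.0659) or MKO tumour replicate 1 (0.103) or 2 (0.0999), and that of Cps1 without MKO tumour replicate 1 (0.0531).

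Arg1, the last enzyme of the cycle, was called lower in tumours of 1 set. WT tumours of sequencing group 2 had 509, 1010.4 and 729 reads, against 1340.2, 1302 and 1494 reads in WT non-tumour liver, a difference of −0.90 (SE 0.23, adjusted p = 0.00298), without overlap. BKO tumours had 529, 749 and 993 reads, against 1113, 1154 and 1081 reads in BKO non-tumour liver, also without overlap, with a difference of −0.59 (SE 0.23, adjusted p = 0.0806). Without BKO tumour replicate 3 it was −0.80 (adjusted p = 0.0249). In sequencing group 1 the tumours spread widely, with 1077, 2581, 1894 and 1481 reads in WT tumours, against 1758, 1468, 1810.1 and 1857 reads in WT non-tumour liver, and the difference was −0.04 (adjusted p = 0.912). SKO tumours had 2108, 2274, 1165 and 899 reads, against 1099.9, 1571, 1069 and 788 reads in SKO non-tumour liver, a difference of 0.44 (SE 0.22, adjusted p = 0.106). Here 2 tumours lay above every non-tumour library. It passed as higher under quantile normalization (0.63, adjusted p = 0.0201) and without SKO non-tumour replicate 2 (0.61, adjusted p = 0.0342) or SKO tumour replicate 4 (0.68, adjusted p = 0.0131). In IKO the difference was 0.15 (adjusted p = 0.648) and in MKO −0.23 (adjusted p = 0.533).

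Nags, which sets the supply of the Cps1 activator, had 511, 231, 291 and 372 reads in WT tumours of sequencing group 1, against 616, 463, 512 and 469 reads in WT non-tumour liver. The groups overlapped, and the difference of −0.56 (SE 0.17, adjusted p = 0.00598) lost its call without WT tumour replicate 2 (−0.40, adjusted p = 0.0669). In the other 5 sets it differed by between −0.26 and 0.06 and did not pass. In WT of sequencing group 2 the difference of −0.26 (adjusted p = 0.194) became −0.49 (adjusted p = 0.0141) without WT tumour replicate 1. Where each comparison was fitted on its own 2 groups, the 4 calls in BKO tumours and the 4 in MKO tumours all missed the threshold, with adjusted p between 0.0634 and 0.0832 in BKO and between 0.0647 and 0.169 in MKO. In that fit Asl in WT of sequencing group 2 (0.0523) and Nags in WT of sequencing group 1 (0.0548) missed it too. Same-numbered BKO tumour and non-tumour libraries deviated together. Fitted on these 2 groups with the replicate number as a block, 1142 genes were called, the 4 members among them. The fit of the 2 groups without the block called 12 genes, and the fit of all groups called 1907.

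**Figure D3:**
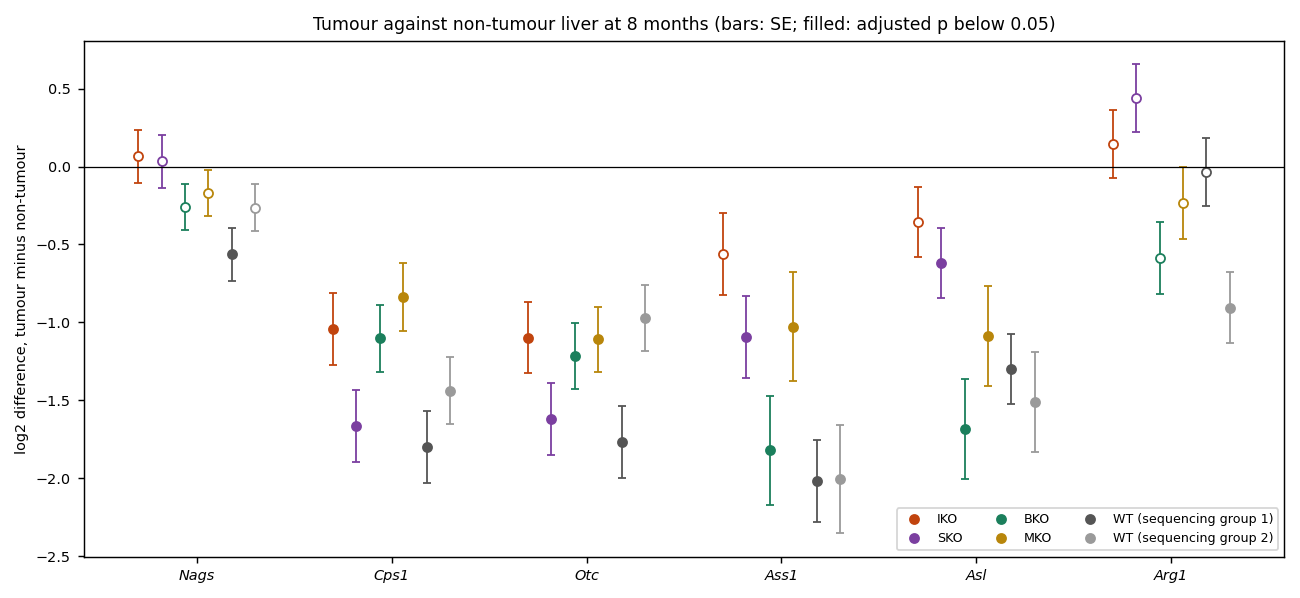
Log2 difference of tumour minus non-tumour liver at 8 months for each urea cycle gene (x axis) in the 6 genotype sets, with bars for the SE and filled points for an adjusted p below 0.05. Cps1 and Otc are filled and below 0 in all 6 sets, while Nags and Arg1 are filled in 1 set each.

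Other hepatocyte genes did not move as 1 block. The summed reads of the 7 measured hepatocyte markers ran from 1206200 to 1538030 in IKO tumours, against 417508 to 793149 in IKO non-tumour liver, and from 951584 to 1693340 in SKO tumours, against 248424 to 407370 in SKO non-tumour liver. In sequencing group 2 they ran from 1338110 to 1562710 in BKO tumours, against 871584 to 1007880 in BKO non-tumour liver, and from 1201350 to 1290650 in MKO tumours, against 462359 to 791828 in MKO non-tumour liver. WT tumours had 1448400 to 1902800, against 271301 to 699877 in WT non-tumour liver, in sequencing group 1, and 1077120 to 1772640, against 439397 to 783196, in sequencing group 2. Thus the sums were higher in tumours without overlap in all 6 sets, while Cps1 and Otc were lower. Such a sum weighs the most abundant markers most and does not describe each marker. Of the 7 markers only 2 or 3 were called higher, and 1 or 2 were called lower, in each set. Proliferation markers, of 5, were called higher in IKO for 3, in SKO for 4, in BKO for 2, in MKO for 0 and in both WT sets for 5. Stellate cell markers, of 7, were called higher for 3 in IKO, 5 in SKO, 2 in BKO, 4 in MKO and 5 in each WT set. The share of all genes called higher in tumours was 18.2% in IKO, 21% in SKO and 22.9% in WT of sequencing group 1, and 8.39% in BKO, 9.76% in MKO and 15% in WT of sequencing group 2. The part of other cells in the urea cycle values was not tested.

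Genes around the cycle were followed in 4 lists. Of 22 genes that supply or carry its substrates, 4 were called higher and 6 lower in IKO tumours, 5 higher and 9 lower in SKO, 1 higher and 11 lower in BKO, 1 higher and 5 lower in MKO, and 2 higher and 12 lower in WT of sequencing group 1 and 2 higher and 9 lower in WT of sequencing group 2. The mitochondrial ornithine carrier Slc25a15 differed by −1.19 in SKO, −1.24 in BKO and −1.31 in WT of sequencing group 1, and each was called. The amino acid transporter Slc38a4 was called lower by −1.07 in IKO and −1.48 in WT of sequencing group 1. Glud1, glutamate dehydrogenase, rose by 1.20 in WT of sequencing group 1. Car5a, which supplies bicarbonate to Cps1, fell by 1.75 in WT of sequencing group 2.

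Of 22 genes of periportal amino acid breakdown, 7 were called lower in IKO tumours, 11 in SKO, 11 in BKO, 9 in MKO and 17 and 14 in WT of sequencing groups 1 and 2, and at most 2 higher. Prodh, proline dehydrogenase, was called lower by −3.21 in SKO, −2.63 in BKO, −2.65 in MKO and −3.61 in WT of sequencing group 1. Cbs, of transsulfuration, was called lower by −1.34 in IKO, −1.97 in SKO, −1.18 in MKO and −2.45 and −1.61 in WT of sequencing groups 1 and 2. Of pericentral genes, 7 of 9 were called lower in IKO, SKO and both WT sets, 2 in BKO and 6 in MKO. Glul, glutamine synthetase, was called lower by −1.31 in IKO, −3.24 in SKO, −2.59 in MKO and −3.12 and −2.33 in WT of sequencing groups 1 and 2. Of 22 regulators and their targets, 4 were called lower in IKO, 5 in SKO, 3 in BKO and 2 in MKO. In WT of sequencing groups 1 and 2, 9 and 5 were called lower. Among all genes 15.1% were called lower in IKO, 18.7% in SKO, 6.32% in BKO and 7.56% in MKO. The shares in WT were 19.2% and 12%. In IKO, SKO and MKO the regulator counts stood near these shares. Cebpa was called lower by −0.90 in BKO, −0.62 in MKO and −0.78 in WT of sequencing group 2. Pck1, the gluconeogenic enzyme, was called lower by −1.79 in IKO, −2.42 in SKO and −2.19 in WT of sequencing group 1.

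Whether a knockout changed the fall in tumours was tested as a difference of differences. Of 24 values 0 were called by limma, 9 had an unadjusted p below 0.05, and limma-voom called 0. Across all genes 0.123% were called for IKO, 0.0308% for SKO, 0.0308% for BKO and 0.131% for MKO. Ass1 came nearest, with a fall smaller by 1.46 in IKO than in WT (SE 0.37, adjusted p = 0.0758). It passed without IKO tumour replicate 2 (1.66, adjusted p = 0.0173) or WT tumour replicate 4 (1.58, adjusted p = 0.0426). In IKO the difference of differences was 0.76 for Cps1 (SE 0.32, adjusted p = 0.461), 0.67 for Otc (SE 0.32, adjusted p = 0.578) and 0.94 for Asl (SE 0.32, adjusted p = 0.289).

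Ikk is a kinase complex upstream of NF-kappaB, and IKO is the label for its loss. The direct comparison of IKO with WT tumours called 3 of the 6 genes higher and 0 lower, against 2.48% of all genes called higher. Ass1 had 2681, 1128, 1691 and 1807 reads in IKO tumours, against 845, 617, 671 and 995 reads in WT tumours. Every IKO tumour lay above every WT tumour, as for 4.14% of genes, and the difference was 1.15 (SE 0.26, adjusted p = 0.00531). Otc had 4528, 2022, 2957 and 3259.6 reads in IKO tumours and 2029, 957, 1903 and 2251 reads in WT tumours, which overlap, with a difference of 0.84 (SE 0.23, adjusted p = 0.0249). Nags had 493, 577, 503 and 567 reads in IKO tumours and 511, 231, 291 and 372 reads in WT tumours, with a difference of 0.62 (SE 0.17, adjusted p = 0.0257). For Nags 1 WT tumour reached the IKO values. Asl differed by 0.57 (adjusted p = 0.167), Cps1 by 0.17 (adjusted p = 0.784) and Arg1 by −0.25 (adjusted p = 0.616). In IKO tumours pericentral genes were called higher for 5 of 9, among them Glul by 1.85 and Cyp2e1 by 1.99, and periportal breakdown genes for 7 of 22, among them Prodh by 2.07 and Hpd by 1.33, with 0 lower in either list. Of the supply list 3 of 22 were higher, among them Car5a by 1.21, and of the regulators Cebpa by 0.70. The hepatocyte marker sums of IKO tumours overlapped those of WT tumours, with 1 marker called higher and 1 lower, and 0 macrophage, stellate or proliferation markers were called. Of 5 cholangiocyte markers 1 was called lower, and the part of other cells was not tested.

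The tumour calls in IKO depended on single libraries. Ass1 lost its call without IKO tumour replicate 1 (0.95, adjusted p = 0.0584). Otc lost it without WT tumour replicate 2 (adjusted p = 0.209) or 3 (0.0502) or IKO tumour replicate 1 (0.162) or 4 (0.083). Nags lost it without WT tumour replicate 2 (0.18) or 3 (0.113) or IKO tumour replicate 2 (0.0542) or 4 (0.0885). Fitted on these 2 groups alone, the adjusted p was 0.0891 for Ass1, 0.27 for Otc and 0.235 for Nags.

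In non-tumour liver over the 4 stages, 0 of the 6 genes were called in IKO by limma or limma-voom, 2 had an unadjusted p below 0.05, and 9.04% of all genes were called. The differences lay between −0.22 for Arg1 (adjusted p = 0.215) and 0.22 for Ass1 (adjusted p = 0.331), with Nags at 0.17 (SE 0.09, adjusted p = 0.21). At single stages 0 of 24 IKO values were called, 4 had an unadjusted p below 0.05 and limma-voom called 1. Asl at 1 month had 2369, 2146, 2476 and 1420.1 reads in IKO liver, against 1389, 1334, 1008 and 1506 reads in WT liver. Of the IKO libraries 3 lay above all WT libraries and replicate 4 among them. The difference of 0.66 (SE 0.23, adjusted p = 0.0563) sat at the threshold, where 9.17% of all genes were called. It passed by limma-voom (0.68, adjusted p = 0.0497), with low genes left out by a mean of at least 5 (0.0481), and without IKO replicate 4 (0.83, adjusted p = 0.0251) or WT replicate 4 (0.73, adjusted p = 0.049). Nags at 1 month had 609, 645, 608 and 594 reads in IKO liver and 516, 328, 507 and 449 reads in WT liver, with no overlap, as for 9.25% of genes in this direction, and a difference of 0.44 (SE 0.17, adjusted p = 0.0885). The IKO libraries of that stage lay within a narrow range. Nags at 5 months was again above WT without overlap, as for 3.84% of genes, with 749.96, 642.6, 635.9 and 614.5 reads in IKO liver, against 515.04, 497.6, 534.9 and 530.7 reads in WT liver (0.33, adjusted p = 0.344). At 8 months Cps1 and Arg1 lay the other way, as for 2.01% of genes. Cps1 had 1661, 1801, 1099.6 and 1231 reads in IKO non-tumour liver, all below the 1978 to 2271 reads in WT non-tumour liver (−0.59, SE 0.23, adjusted p = 0.6). Arg1 had 1417, 1352, 1068 and 1245 reads in IKO, all below the 1468 to 1857 reads in WT (−0.43, SE 0.22, adjusted p = 0.804). At 3 months 0.201% of all genes were called, at 5 months 1.45% and at 8 months 0.201%. In the 4 other lists IKO showed 1 called gene each for supply, periportal and regulators, namely Slc25a13 (0.29), Bckdha (0.36) and Gcgr (0.19), and 0 pericentral genes.

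SKO liver, labelled as lacking the phosphatase Shp2, had lower Asl, Arg1 and Otc in non-tumour tissue on average over the stages. By stage, Otc stood near WT at 3 and 8 months. Over the 4 stages Asl differed from WT by −0.52 (SE 0.11, adjusted p = 0.000441), Arg1 by −0.48 (SE 0.11, adjusted p = 0.000729) and Otc by −0.35 (SE 0.11, adjusted p = 0.0216), against 10.9% of all genes called lower. Cps1 differed by 0.02 (adjusted p = 0.916), Ass1 by 0.02 (adjusted p = 0.935) and Nags by 0.05 (adjusted p = 0.698). Otc missed the threshold under quantile normalization (−0.30, adjusted p = 0.0583) and without SKO non-tumour replicate 1 of 8 months (−0.29, adjusted p = 0.0515). Without the library labelled SKO replicate 2 at 3 months, the 3 genes stayed called, with Asl at −0.55 (adjusted p = 0.000232), Arg1 at −0.53 (adjusted p = 0.000178) and Otc at −0.36 (adjusted p = 0.0181). Without WT replicate 1 of 3 months they also stayed called, with Asl at −0.55 (adjusted p = 0.000302), Arg1 at −0.48 (adjusted p = 0.00116) and Otc at −0.33 (adjusted p = 0.0377).

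By stage, Asl was lower at 8 months. It had 597, 914, 757 and 674 reads in SKO non-tumour liver, against 1194, 966, 1401 and 1605 reads in WT non-tumour liver, with every SKO library below every WT library, as for 5.83% of genes. The difference was −0.78 (SE 0.23, adjusted p = 0.0301), where 2.49% of all genes were called lower. The call was lost under quantile normalization (0.0529) and without WT replicate 1 (0.0716), 3 (0.0942) or 4 (0.105) or SKO replicate 1 (0.124), 3 (0.0571) or 4 (0.0549). At 5 months Asl had 1611, 1444, 2020.2 and 1463 reads in SKO liver, against 2330.0, 2889.6, 3092 and 2109 reads in WT liver, a difference of −0.66 (SE 0.23, adjusted p = 0.0676). Otc then had 3373, 3648, 3439 and 4241 reads in SKO liver, against 5682, 6714, 6461 and 4406 reads in WT liver, a difference of −0.65 (SE 0.23, adjusted p = 0.0787). Arg1 at 5 months had 1574, 1516, 1466 and 1119 reads in SKO liver, against 2025, 2019, 2116 and 1807 reads in WT liver, a difference of −0.49 (SE 0.22, adjusted p = 0.18). All SKO libraries lay below all WT libraries for these 3 genes, as for 7.65% of genes, yet 0 were called by limma or limma-voom, 3 had an unadjusted p below 0.05, and 6.02% of all genes were called. Fitted on the 2 groups alone, the 3 genes passed, with an adjusted p of 0.0326 for Asl, 0.0287 for Otc and 0.0385 for Arg1. At 3 months 0 of 6 were called by either tool, 1 had an unadjusted p below 0.05, and 5.19% of all genes were called, 673 in all. Asl differed there by −0.48 (adjusted p = 0.236). Without SKO replicate 2 it was −0.59 (adjusted p = 0.13), with 1002 genes called, and without WT replicate 1 it was −0.59 (adjusted p = 0.174), with 464 genes called.

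At 1 month Arg1 had 985, 1232, 1049 and 1038 reads in SKO liver, against 1987, 2034, 1221 and 1624 reads in WT liver. WT replicate 3 reached into the SKO values, and the difference was −0.64 (SE 0.22, adjusted p = 0.0372), where 7.34% of all genes were called lower. Nags went the other way, with 594, 692, 679 and 669 reads in SKO liver, against 516, 328, 507 and 449 reads in WT liver. Here the groups did not overlap, as for 11.7% of genes in this direction, and the difference was 0.54 (SE 0.17, adjusted p = 0.0228), where 8.74% of all genes were called higher. The Arg1 call was lost without WT replicate 1 (0.108), 2 (0.134) or 4 (0.056) or SKO replicate 1 (0.0862), 3 (0.0756) or 4 (0.076), and the Nags call without WT replicate 2 (0.145) or SKO replicate 2 (0.0559) or 3 (0.0548). Otc at 1 month differed by −0.56 (adjusted p = 0.0888) and passed under quantile normalization (−0.66, adjusted p = 0.0411). At 3 months Otc differed by only −0.10 and Arg1 by −0.18. Otc at 8 months averaged 5693 ± 1516 reads in SKO non-tumour liver, against 5871 ± 498 in WT non-tumour liver (SD, n = 4). Arg1 at 8 months differed by −0.63 (adjusted p = 0.0817) and passed without SKO non-tumour replicate 2 (adjusted p = 0.0452).

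Other genes moved in the same SKO libraries. At 8 months the summed reads of 11 macrophage markers ran from 5947 to 6655 in SKO non-tumour liver, against 1698 to 4669 in WT non-tumour liver, and those of 7 hepatocyte markers from 248424 to 407370 in SKO, against 271301 to 699877 in WT. Macrophage markers were called higher for 10 of 11 over the 4 stages, proliferation markers for 5 of 5 and stellate markers for 4 of 7, while 5 of 7 hepatocyte markers were called lower. Their part in the urea cycle values was not tested. Periportal breakdown genes were called lower for 10 of 22 and higher for 1, among them Ftcd (−1.06) and Uroc1 (−0.85) of histidine breakdown and Cth (0.98) of transsulfuration. Of the supply list 2 were higher and 3 lower, among them Arg2, the mitochondrial arginase, by 0.50, and Car5a by −0.46. Over the 4 stages 12% of all genes were called higher in SKO and 10.9% lower, and the supply counts stood near these shares. Asl lies 8.82 Mb from Ptpn11 on chromosome 5. Within 10 Mb of Ptpn11 57 of 192 genes were called in either direction, 29.7% against 22.9% of all genes. In the direction of Asl, 20 of the 192 were called lower, where 10.9% of all genes were. In SKO against WT tumours 10 of the 192 were called in either direction, 5.21% against 1.72% of all genes. There 6 of the 192 were called lower, where 1.04% of all genes were. Of the 6 urea cycle genes 0 were called in SKO against WT tumours by limma or limma-voom, and 0 had an unadjusted p below 0.05. Ass1 differed by 0.42 (adjusted p = 0.499) and Asl by −0.10 (adjusted p = 0.898). IKO and SKO were set against the same WT libraries.

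In BKO liver, which is labelled as lacking beta catenin, 0 of the 6 genes were called over the 4 non-tumour stages by limma or limma-voom, 3 had an unadjusted p below 0.05, and 19.6% of all genes were called. Asl differed by 0.39 (SE 0.16, adjusted p = 0.0819), Otc by 0.27 (SE 0.10, adjusted p = 0.0639) and Ass1 by 0.36 (SE 0.17, adjusted p = 0.148). These 3 passed in the fit of BKO and WT groups alone, with an adjusted p of 0.0148 for Asl, 0.0474 for Otc and 0.0263 for Ass1. Otc (0.32, adjusted p = 0.0173) and Asl (0.47, adjusted p = 0.0236) passed under quantile normalization, and likewise without BKO non-tumour replicate 1 of 8 months (0.35, adjusted p = 0.0088, and 0.47, adjusted p = 0.0352). At 1 month Asl had 4897, 4279.8 and 3623 reads in BKO liver, against 2307, 1884 and 2474 reads in WT liver, a difference of 0.93 (SE 0.32, adjusted p = 0.0927). Arg1 had 2619.9, 1893 and 2434 reads in BKO liver, against 1754, 1065 and 1492 reads in WT liver, a difference of 0.69 (SE 0.23, adjusted p = 0.0755). For both genes every BKO library lay above every WT library, as for 15% of genes. This held for Cps1 (0.52, adjusted p = 0.178) and Ass1 (0.46, adjusted p = 0.527) as well, whereas Nags lay below WT without overlap, as for 12.9% of genes (−0.20, adjusted p = 0.527). Asl passed in the fit of the 2 groups alone (0.0171), and Arg1 without WT replicate 1 (0.85, adjusted p = 0.0448). At 3 months Asl had 4168, 4459 and 5377 reads in BKO liver, against 2766, 2652 and 3066 reads in WT liver, with no overlap, as for 11.6% of genes, and a difference of 0.71 (SE 0.32, adjusted p = 0.34), which passed in the fit of the 2 groups alone (0.0426). Otc (0.37, adjusted p = 0.486), Ass1 (0.65, adjusted p = 0.451) and Nags (0.30, adjusted p = 0.393) lay above WT without overlap too. Arg1, above WT at 1 month, lay below WT without overlap at 5 months (−0.37, adjusted p = 0.353) and at 8 months (−0.30, adjusted p = 0.478), as for 12.5% and 10.6% of genes. Over the 4 single stages 0 of 24 BKO values were called by limma or limma-voom, 5 had an unadjusted p below 0.05, and 4.37%, 1.54%, 6.44% and 4.91% of all genes were called at 1, 3, 5 and 8 months.

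The pericentral list, several of whose genes depend on beta catenin in mouse liver, was called lower for 9 of 9 in BKO, among them Cyp2e1 by −4.27, Slc1a2 by −4.06 and Tbx3 by −2.84. Periportal breakdown genes were called higher for 5 of 22 and lower for 3, among them Sdsl (0.81), Gldc (0.81) and Hal (0.67), all higher. Of the supply list 6 were higher and 3 lower, among them Aqp9, the urea and glycerol channel, by −1.26, Car5a by −0.73 and Glud1 by −0.45. Of the regulators 2 were higher and 4 lower, among them Egr1 (1.19) and Ppara (−0.55). Over the 4 non-tumour stages 10.6% of all genes were called higher in BKO and 9.04% lower. Markers of other cells were called higher as well, 6 of 11 for macrophages, 6 of 7 for stellate cells and 5 of 5 for cholangiocytes, with 2 of 7 hepatocyte markers higher, and their part in the urea cycle values was not tested. In BKO against WT tumours 0 of 6 genes were called by either tool, 0 had an unadjusted p below 0.05, and 0.548% of all genes were called. Their differences lay between −0.24 for Nags and 0.37 for Ass1.

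MKO liver, labelled as lacking the hepatocyte growth factor receptor Met, showed 0 of 6 genes called over the 4 non-tumour stages by limma or limma-voom, 1 with an unadjusted p below 0.05, and 2.71% of all genes called. Arg1 differed by −0.28 (SE 0.11, adjusted p = 0.192), and the other 5 by between −0.11 and 0.16. At 5 months Arg1 had 935, 1160.4 and 1109 reads in MKO liver, against 1952, 1491 and 1573 reads in WT liver. All MKO libraries lay below the WT libraries, as for 8.73% of genes, and the difference was −0.63 (SE 0.23, adjusted p = 0.338), where 0.0463% of all genes were called. Asl lay below WT without overlap at that stage too (−0.35, adjusted p = 0.798). At 1 month Cps1 (0.58, adjusted p = 0.366) and Asl (0.49, adjusted p = 0.775) lay above WT without overlap, as for 8.77% of genes. At 8 months Cps1 had 2562, 2109.7 and 2154 reads in MKO non-tumour liver, against 3329.5, 3138 and 3280.5 reads in WT non-tumour liver, again without overlap, as for 10.9% of genes, with a difference of −0.51 (SE 0.22, adjusted p = 0.147). Arg1 was placed the same way (−0.48, adjusted p = 0.205), and Otc lay above WT without overlap (0.33, adjusted p = 0.353), as for 12.5% of genes. Of all genes 5.74% were called there, 744 in all. Same-numbered libraries of the 2 groups deviated together. Fitted on these 2 groups alone, 0 genes were called, and 195 with the replicate number as a block. The members had 0 calls in each of these fits. In that comparison 3 of 11 macrophage markers were called higher, and in MKO against WT tumours 7 of 11, whose part was not tested. Over the 4 single stages 0 of 24 MKO values were called by limma or limma-voom, 4 had an unadjusted p below 0.05, and 0.185% and 0.0231% of all genes were called at 1 and 3 months. In MKO against WT tumours 0 of 6 were called by either tool, 0 had an unadjusted p below 0.05, and 4.03% of all genes were called. Ass1 differed by 0.68 (SE 0.35, adjusted p = 0.312), and by 1.22 (adjusted p = 0.0329) without WT tumour replicate 2. Of the other lists Mdh2 rose by 0.36 and Ppara fell by 0.46 on the log2 scale, and 0 pericentral and 0 periportal genes were called. BKO and MKO share their WT libraries.

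**Figure D4:**
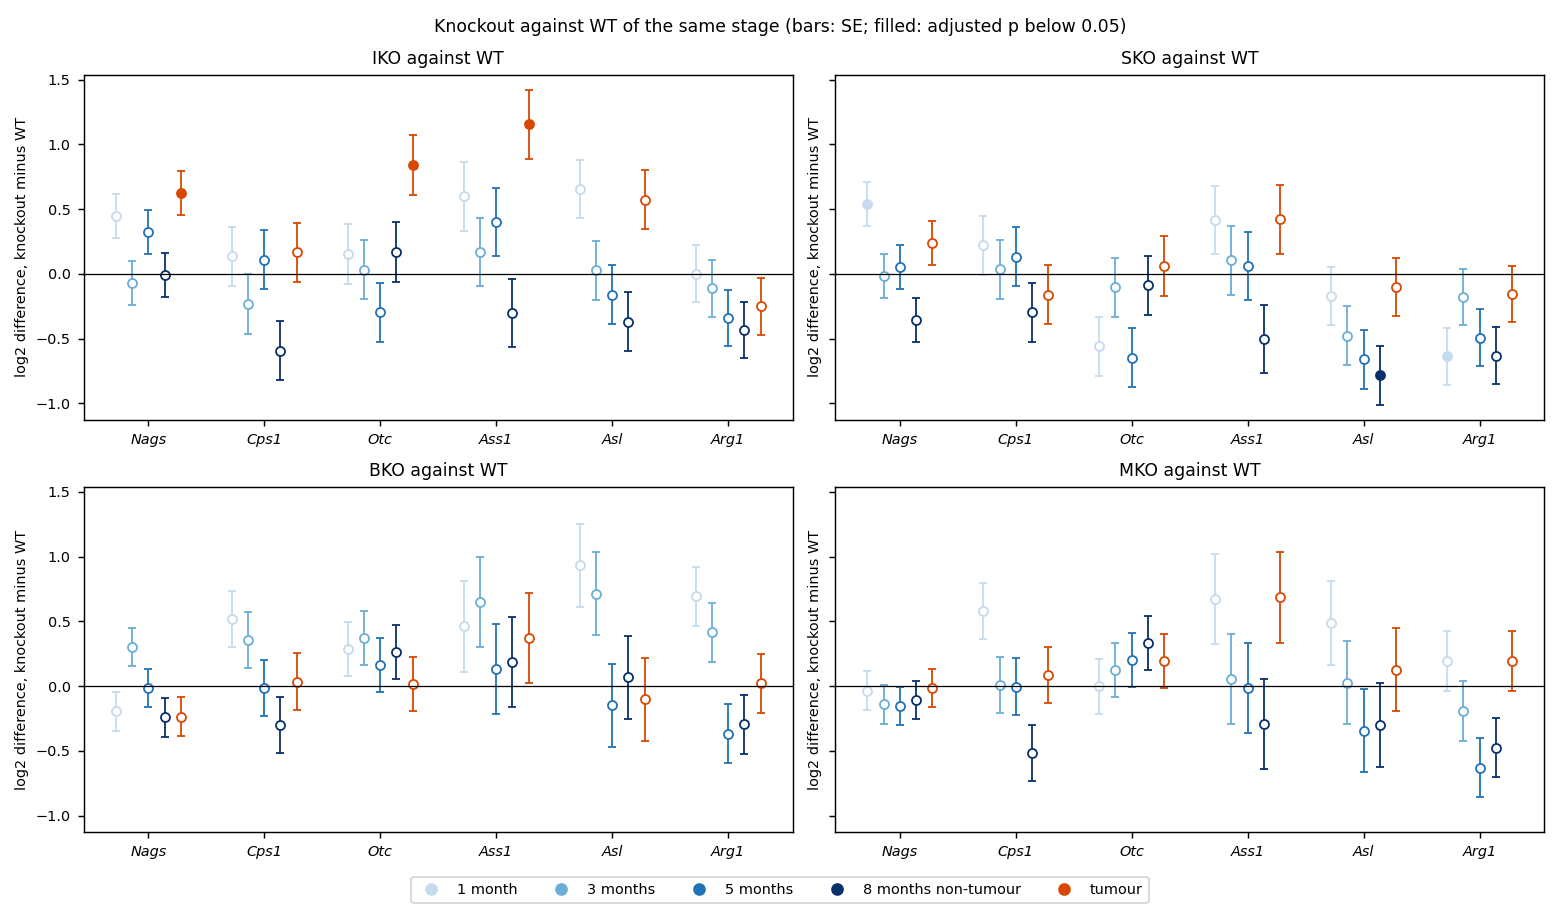
Log2 difference of each knockout minus WT for the 6 urea cycle genes (x axis) at 1, 3, 5 and 8 months and in tumours, with bars for the SE and filled points for an adjusted p below 0.05. The 6 filled points are Nags, Otc and Ass1 in IKO tumours, Nags and Arg1 in SKO liver at 1 month and Asl in SKO non-tumour liver at 8 months.

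Whether the knockout effect depended on stage was tested by an interaction over the 4 non-tumour stages. Of 24 values 0 were called by limma or limma-voom and 5 had an unadjusted p below 0.05, while 0.0694% of all genes were called for IKO, 5.68% for SKO, 0.663% for BKO and 0.339% for MKO. Nags in SKO came nearest (F = 4.72, adjusted p = 0.0698). Its difference from WT was 0.54 at 1 month, −0.02 at 3 months, 0.05 at 5 months and −0.36 at 8 months. Its adjusted p was 0.0714 without the library labelled SKO replicate 2 at 3 months. It passed without WT replicate 1 of 3 months (adjusted p = 0.0459), the library also left out above, or SKO non-tumour replicate 4 of 8 months (0.0217). Arg1 in BKO had an adjusted p of 0.134, with differences of 0.69, 0.41, −0.37 and −0.30 at the 4 stages. Cps1 in MKO had 0.207, with differences of 0.58, 0.01, −0.0034 and −0.51.

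Between libraries of the same group, several of these genes varied together. Tumour and non-tumour groups were pooled here, and some tumour groups spread widely. The log2 SD of Cps1 was 0.82 in SKO tumours but 0.08 in WT tumours of sequencing group 1. In WT tumours of sequencing group 2 the SD was 0.94 for Ass1 and 0.92 for Asl. Correlations without tumours were not run. Each library's deviation from its group mean was correlated over 60 libraries in sequencing group 1 and 45 in sequencing group 2, for 15 gene pairs in each, with permutations within groups and Benjamini-Hochberg adjustment over the 30 relations. Ass1 and Asl, successive enzymes in the cytosol, had r = 0.664 and rho = 0.709 in sequencing group 1 (permutation p = 1e-05, adjusted 7.5e-05) and r = 0.805 and rho = 0.782 in sequencing group 2 (permutation p = 4e-05, adjusted 0.00024). Without the 2 libraries farthest from the median of Ass1, r was 0.723 and 0.769. Cps1 and Ass1 had r = 0.667 and rho = 0.641 in sequencing group 1 (permutation p = 1e-05, adjusted 7.5e-05) and r = 0.793 and rho = 0.773 in sequencing group 2 (permutation p = 1e-05, adjusted 7.5e-05), and r = 0.633 and 0.749 without the 2 farthest libraries. The p of 1e-05 is the smallest that 100000 permutations can give. Asl and Arg1 had r = 0.637 and 0.515, with r = 0.631 and 0.376 without the 2 farthest. Cps1 and Otc had r = 0.547 and 0.516, with 0.412 and 0.392 without them. Nags had r = 0.453 with Ass1 in sequencing group 1 and 0.107 in sequencing group 2, and with Arg1 it had r = −0.448 (rho = −0.272, permutation p = 0.0185, adjusted 0.0326) and −0.437 (rho = −0.435, permutation p = 0.027, adjusted 0.045), or −0.29 and −0.332 without the 2 farthest libraries. In sequencing group 1 the rho of Nags and Arg1 had an adjusted p of 0.136. Over the 15 pairs r ran from −0.448 to 0.667 with a median of 0.433 in sequencing group 1, and from −0.437 to 0.805 with a median of 0.515 in sequencing group 2. The median r of each member with all genes of the table lay between −0.026 and 0.009. How many other gene pairs reach r as high as these was not counted. Libraries of a group differed in depth, and the part of depth or of hepatocyte content in this covariation was not tested.

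**Figure D5:**
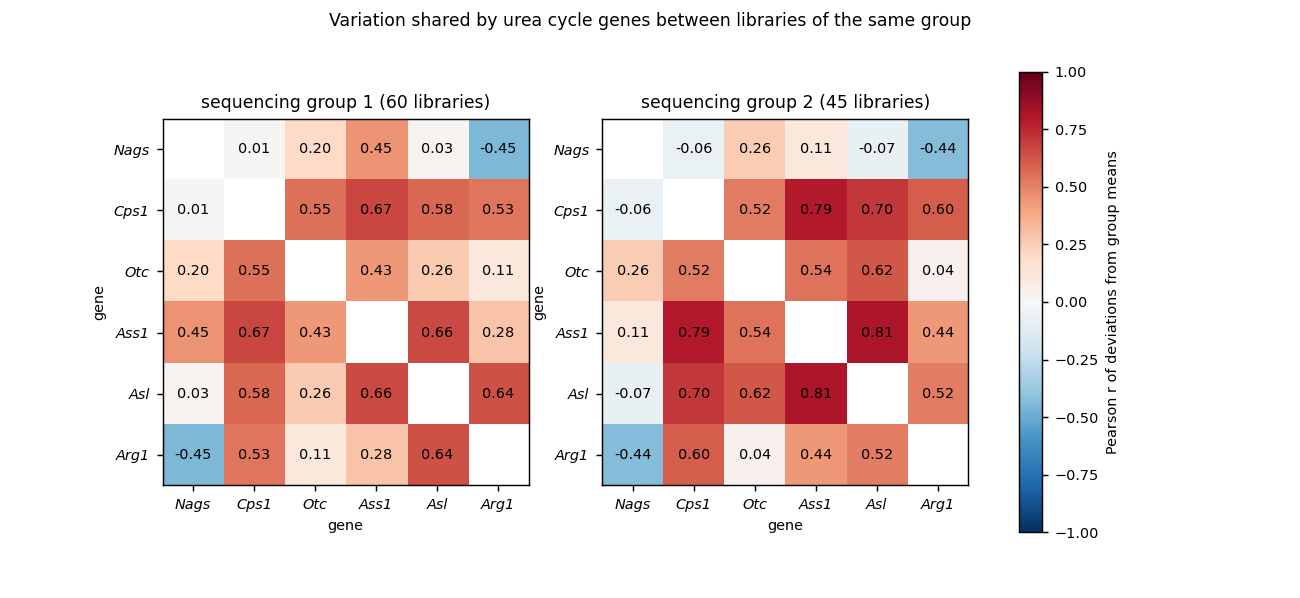
Pearson r between the deviations of each pair of urea cycle genes from their group means, in sequencing group 1 (left, 60 libraries) and sequencing group 2 (right, 45 libraries), on a colour scale from −1 to 1. Ass1 with Asl and Cps1 with Ass1 are high in both panels, and Arg1 with Nags is negative in both.

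Over the 30 group means, which include both sequencing groups and tumours, each sequencing group centred on its own mean, the genes most like each member were listed by Pearson r as a description. For Cps1 they were Cyp2j5 (0.959), Igf1 (0.954) and Tmem30a (0.947), and for Otc Acsm5 (0.93), Hsd3b3 (0.929) and Lap3 (0.921). For Ass1 they were Gnmt (0.974), Suox (0.961) and Mtarc1 (0.955), and for Asl Gnmt (0.961), Sardh (0.958) and Aldh1l1 (0.942). Gnmt and Sardh are enzymes of glycine and sarcosine metabolism. For Arg1 they were Ndufb5 (0.82), Ndufb9 (0.801) and Lgr4 (0.799), and for Nags Akr7a5 (0.822), Clpb (0.805) and Msrb1 (0.805). Among the members the highest likeness was 0.948 for Ass1 and Asl and the lowest 0.347 for Arg1 and Nags. The groups differed in depth, and groups of the same sequencing group were sequenced together by label, so these values carry no test.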

How the data were processed

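MAPS libraries of DEN-treated mouse liver were analysed, 60 in sequencing group 1 and 45 in sequencing group 2. Per the submitters' processing notes, the tools included STAR 2.7.10a, HTSeq 2.0.2 and DESeq2 1.32.0 with GRCm38. The deposited table holds log2 values. Its name mentions rlog and CPM, and the transform was read from the values: all libraries share a floor of 3.8289, and inverting a variance-stabilising transform gave whole reads within 0.05 for 100.0% of values under 10000 reads, which were 98.9% to 99.63% of values per library. Higher values were not checked. How the authors' reads were filtered is not given in the sources used here.

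A separate fit per sequencing group used limma 3.58.1 in R 4.3.3 (trend, 1 mean per group), and p-values were adjusted by Benjamini-Hochberg over all 12966 genes. The minimum mean of 3 removed 0 genes. Where same-numbered libraries were checked for pairing in 26 pairs of groups, 2 had every correlation over 0.1, MKO with WT non-tumour liver at 8 months (0.124 to 0.303) and BKO tumour with non-tumour liver (0.226 to 0.329), where the numbers come from the titles. No files held columns of other samples, no duplicate libraries were found, and the fit was tested on simulated data. Alternatives were a mean of at least 5, no filter, quantile normalization, only the groups compared, a replicate block, limma-voom on the recovered reads and leaving out each library. The 6 genes are named in every comparison, and from each list up to 3 called genes with the smallest p. Members and lists were chosen with earlier results of these data known. Python 3.11.15 and matplotlib 3.10.9 drew the figures.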

Additional observations from a re-analysis of the deposited data

Results flagged for a closer look

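Of 90 sets of 4 libraries (6 genes in 15 groups), 3 held a library far from the other 3, and chance gives about 1 in 20. Cps1 in WT liver at 1 month of sequencing group 1 was lowest in replicate 3, with 974.4 reads against 1655.5 to 1826.2 in the others. Otc in SKO tumours was lowest in replicate 3, with 847.2 reads against 2162.3 to 2430.9 in the others. Ass1 in SKO liver at 1 month was highest in replicate 2, with 7114.6 reads against 4649.4 to 4956.3 in the others.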

How the results depend on the processing

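Of 240 gene values, the call stayed for 239 with the stricter filter, 240 without a filter and 233 under quantile normalization. It stayed for 219 in fits of only the groups compared and for 239 by limma-voom. The replicate block left all 240 calls the same. Within the 2 pairs of groups whose numbers pair the libraries, a block chosen after seeing the data left 12 of 12 calls. That block was fitted within those groups. No called value reversed, and the direction of values not called in the report was not compared. Against the counts of called members in the report, IKO at 1 month had 1 with the stricter filter and 1 by limma-voom in place of 0. SKO non-tumour liver at 8 months had 0 under quantile normalization in place of 1, and BKO over the 4 stages had 2 in place of 0. In fits of only the groups compared, IKO tumours had 0 in place of 3 and SKO at 5 months 3 in place of 0. BKO then had 3 over the 4 stages, 1 at 1 month and 1 at 3 months, each in place of 0. Tumour against non-tumour liver had 0 in place of 4 in BKO and in MKO. These fits have fewer libraries and take the spread from the compared groups alone, and their SE moved both ways. In IKO tumours it rose to 0.29 for Otc and fell to 0.24 for Ass1. For Asl in SKO liver at 5 months it fell to 0.15.

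Leaving out each library in turn gave 0 to 1 called members for IKO at 1 month, 1 to 3 for IKO tumours, 2 to 3 for SKO over the 4 stages, 0 to 2 for SKO at 1 month and at 8 months, 0 to 2 for BKO over the 4 stages, 0 to 1 for BKO at 1 month and 0 to 1 for MKO tumours. For tumour against non-tumour liver it gave 2 to 4 in IKO, 3 to 4 in SKO, 4 to 5 in BKO, 1 to 4 in MKO, and 4 to 5 and 5 to 6 in WT of sequencing groups 1 and 2. The difference of the tumour effect in IKO and the interaction in SKO each gave 0 to 1. Of 2856 gene values without 1 library, 39 lost and 17 gained a call.

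Counts over all genes moved by over 1.5 times in fits of only the groups compared, with 35 in place of 467 in IKO tumours, 21 in place of 673 in SKO at 3 months, 353 in place of 652 in SKO at 8 months, 0 in place of 744 and 523 in MKO at 8 months and in MKO tumours, 12 in place of 1907 and 82 in place of 2245 for tumours against non-tumour liver in BKO and MKO, and 1741 in place of 3510 in WT of sequencing group 2. The same fits gave 33 in place of 223 in SKO tumours, 9 in place of 26 and 17 in place of 188 in IKO at 3 and 5 months, 11 in place of 26 in IKO at 8 months, 526 in place of 835, 79 in place of 637 and 1 in place of 71 in BKO at 5 months, at 8 months and in tumours, 572 in place of 351, 5 in place of 24, 1 in place of 3 and 20 in place of 6 in MKO over the 4 stages and at 1, 3 and 5 months, 511 in place of 908 and 82 in place of 223 between 8 months and 1 month in WT of sequencing groups 1 and 2, 149 in place of 44 for the interaction in MKO, and 9, 1, 0 and 0 in place of 16, 4, 4 and 17 for the difference of the tumour effect in IKO, SKO, BKO and MKO. Quantile normalization gave 88 in place of 188 in IKO at 5 months, 6 in place of 3 in MKO at 3 months, 477 in place of 736 for the interaction in SKO and 31 in place of 4 for the difference of its tumour effect. Limma-voom gave 101 in place of 188 in IKO at 5 months, 129 in place of 200 and 390 in place of 637 in BKO at 3 and 8 months, 3 in place of 6 in MKO at 5 months, 46 in place of 86 for the interaction in BKO, and 44, 0 and 10 in place of 16, 4 and 17 for the difference of the tumour effect in IKO, SKO and MKO. The stricter filter gave 2 in place of 4 and 9 in place of 17 for that difference in SKO and MKO, and the replicate block 14 in place of 4 for it in SKO and 5 in place of 3 in MKO at 3 months. Without 1 library, 33 of 40 such counts moved by over 1.5 times, so the shares of all genes called carry that spread. The count lay between 369 (without WT replicate 2) and 1246 in IKO at 1 month, between 191 (without WT replicate 3) and 580 in IKO tumours, between 781 (without WT replicate 1 of 3 months) and 1397 in IKO over the 4 stages, and between 1 and 103 (without WT replicate 1 of 3 months) for the interaction in IKO, 9 with all libraries. In SKO it lay between 1323 and 1873 at 1 month, 172 (without SKO replicate 4) and 1002 at 3 months, 500 and 669 at 5 months, 242 and 817 at 8 months and 108 and 357 in tumours. In BKO it lay between 205 and 604 at 1 month, 123 and 156 at 3 months, 335 and 876 at 5 months, 220 and 605 at 8 months, 15 and 93 in tumours, and 780 (without BKO non-tumour replicate 2) and 2517 for tumours against non-tumour liver. In MKO it lay between 180 and 431 over the 4 stages, 72 (without MKO replicate 2) and 914 at 8 months, 117 and 786 in tumours, 1034 (without MKO tumour replicate 1) and 2809 for tumours against non-tumour liver, and 8 and 137 (without WT tumour replicate 2) for the difference of the tumour effect.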
